A study of Mus musculus with 13 samples.

Results

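A list of 10 genes of MHC class I antigen presentation and of the immunoproteasome was followed in mouse intestine: the class I heavy chains H2-K1 and H2-D1, their light chain B2m, the peptide transporter subunits Tap1 and Tap2, the bridging protein Tapbp, the proteasome subunits Psmb8, Psmb9 and Psmb10, and Nlrc5, the transactivator of class I genes. Members were the rows of the deposited array table whose platform gene symbol was on this list of 10. Of the 10, 9 had a named probe set, 1 each, among 19505 genes with one, and Nlrc5 is not analysed here. Female FVB mice that all carried a mammary carcinoma expressing human HER2 gave ileum and colon, and the labels' tumour volume was 150 mm3. The groups were ileum with vancomycin (3 arrays), ileum without antibiotic (3 arrays), colon with vancomycin (3 arrays) and colon without antibiotic (4 arrays). Vancomycin, an antibiotic that kills mainly Gram-positive bacteria, was given in drinking water at 200 mg/L, starting at 4 weeks of age, and the experiment ended at 9 weeks, where the labels do not say whether this is age or time on treatment. No tumour-free mice and no mice free of bacteria are among these groups, and the labels do not say whether arrays are separate animals. Precision is limited by the number of arrays, and p-values measure only how far these samples spread, which may be technical.

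Class I molecules carry peptides from inside the cell to its surface, where CD8 T cells and natural killer cells read them. The proteasome cuts cytosolic proteins into peptides, the TAP transporter pumps them into the endoplasmic reticulum, and tapasin, encoded by Tapbp, holds an empty class I molecule beside the transporter until a peptide binds. Interferon gamma raises most genes of this chain and exchanges the constitutive catalytic proteasome subunits for the inducible Psmb8, Psmb9 and Psmb10. The small intestine keeps many CD8 T cells within its epithelium, and interferon gamma from lymphocytes is known to act on that epithelium.

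Of the 10 listed genes 7, all but B2m, Psmb10 and Nlrc5, lie on chromosome 17 in the MHC region, and Psmb9, Tap1, Psmb8 and Tap2 are direct neighbours there in the RefSeq annotation of GRCm38.p6. Psmb9 and Tap1 point away from each other, so that 1 stretch of 225 bases separates their starts. The 4 upstream stretches below belong to Tap1, Psmb9, Psmb8 and H2-D1, the genes with the largest changes in the ileum, and to the light chain that every class I molecule needs. They were taken from RefSeq windows of GRCm38.p6 that run from 250 bases before to 50 bases after a gene's start, which held 8 of the 10 genes (not Tap2 or Nlrc5). These are letters of the reference strain, and FVB mice carry another H2 haplotype, so the letters in the mice studied may differ. Capitals mark the motifs searched on both strands: the IRF-type repeats GAAANNGAA and GAANNGAAA, the STAT-type palindrome TTCNNNGAA, the NF-kappaB-type site GGGATTCCC, the X2 core TGACG and the Y box CCAAT. The letters were chosen after these windows had been read. The 2 repeats can overlap, and no matches of different motifs overlapped in these genes.
Tap1 and Psmb9, between the starts, chr17:34187331-34187555, plus strand: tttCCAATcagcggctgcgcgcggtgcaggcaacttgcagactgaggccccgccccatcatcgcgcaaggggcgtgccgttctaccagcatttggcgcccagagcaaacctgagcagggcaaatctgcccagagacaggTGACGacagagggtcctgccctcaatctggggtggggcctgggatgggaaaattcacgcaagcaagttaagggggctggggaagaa
Psmb8, chr17:34198045-34198194, plus strand: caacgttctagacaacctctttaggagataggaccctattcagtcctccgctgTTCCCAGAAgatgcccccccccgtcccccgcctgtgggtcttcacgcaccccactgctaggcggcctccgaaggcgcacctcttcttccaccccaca
H2-D1, chr17:35262904-35263093, plus strand: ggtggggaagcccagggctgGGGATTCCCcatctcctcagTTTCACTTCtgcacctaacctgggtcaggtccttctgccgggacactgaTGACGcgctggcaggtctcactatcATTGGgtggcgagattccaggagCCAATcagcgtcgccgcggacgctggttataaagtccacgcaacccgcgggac
B2m, chr2:122147497-122147686, plus strand: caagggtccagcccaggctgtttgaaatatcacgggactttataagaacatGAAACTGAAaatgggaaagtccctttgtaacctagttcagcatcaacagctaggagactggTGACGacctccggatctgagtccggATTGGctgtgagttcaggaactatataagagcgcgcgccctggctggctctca

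The NF-kappaB-type site stood in the H2-D1 and H2-K1 windows, against 101 of 27025 gene windows of 300 bases (0.374%). The repeat GAANNGAAA also stood in both, where 7.56% of all windows hold it. The other repeat, GAAANNGAA, was found in B2m, against 8.58% of all windows, and TTCNNNGAA in Psmb8, against 8.42%. The X2 core was present in B2m, Tap1, Psmb9, H2-K1 and H2-D1 (20.9% of all windows), and the Y box in these 5 genes and in Tapbp (38% of all windows). Those of Tap1 and Psmb9 are the same letters, read from the stretch between them. The Psmb10 window held none of these letters. The letters were chosen after these windows had been read, so the shares are a description and no test. H2-D1 and H2-K1 are closely related in sequence, so their shared matches are not separate findings. Such a match is a description of the letters and does not show that a factor binds.

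Values are RMA log2 expression values, in which a difference of 1 is nominally a factor of 2. Changes are differences of group means with standard errors (SE) from a limma fit of all 13 arrays, and a gene is called at an adjusted p below 0.05 over 19572 probe sets. B2m exceeded 16, the log2 limit of a 16-bit scanner, on 12 of 13 arrays and H2-K1 on 4, so changes of these bright genes may be compressed. The labelled tissues matched their markers, with 4 of 4 colon markers called higher in colon and 5 of 6 ileum markers called lower in it. Both counts are without antibiotic, where 4020 of 19572 probe sets were called in either direction. Replicate 11 of the vancomycin ileum stood apart, correlating with its group at 0.977 on average, where replicates 13 and 14 had 0.987 and 0.983. The mean of 7 B cell markers was 10.22 on it, 7.83 on replicate 13 and 7.51 on replicate 14, against at most 8.19 without antibiotic. Class I heavy chain genes are closely related in sequence, and FVB mice carry another H2 haplotype than the reference strain, so signal of these probe sets may be shared or lowered by mismatches, which was not tested.

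The first question was what vancomycin did to these genes in the ileum. All 9 measured genes were lower in each vancomycin ileum than in any ileum without antibiotic, and Tap1, Psmb9 and Psmb8 fell past the threshold. Their falls were nominally 4.69-fold for Tap1, 3.91-fold for Psmb9 and 3.37-fold for Psmb8. These 3 of 9 calls stand against 0.485% of all probe sets called lower, and the 9 of 9 without overlap against 8.34% of all probe sets without overlap and lower. The median change of the 9 was -0.76, where the median of all probe sets was 0.02 and their middle 50% lay between -0.14 and 0.19. An unadjusted p under 0.05 was seen for 8 of the 9, against 1977 of 19572 probe sets in the ileum.

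Tap1 encodes the transporter subunit that pairs with the Tap2 product. Its log2 values were 11.24, 10.29 and 10.87 in vancomycin ilea, against 13.16, 12.74 and 13.19 in ilea without antibiotic. Every vancomycin value lay at least a full log2 unit under every value without antibiotic, and replicate 13 was the lowest. The change was -2.23 ± 0.22 (SE, 3 against 3 arrays, limma adjusted p = 0.000406), with means of 10.80 ± 0.48 in vancomycin ilea and 13.03 ± 0.25 in ilea without antibiotic (SD).

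Tap2, the other transporter subunit, differed by less. Its values were 8.22, 8.32 and 8.59 in vancomycin ilea, against 8.87, 8.82 and 9.14 in ilea without antibiotic. The groups did not overlap, yet the change of -0.57 ± 0.15 was not called (limma adjusted p = 0.168). Tapbp read 11.03, 11.24 and 11.23 with vancomycin, against 11.76, 11.89 and 11.65 without antibiotic. This tapasin gene was also separated without being called, at -0.60 ± 0.20 (limma adjusted p = 0.283).

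Psmb9 encodes the inducible subunit that takes the place of Psmb6. Vancomycin ilea had Psmb9 values of 13.12, 13.17 and 13.09, against 15.31, 14.80 and 15.17 in ilea without antibiotic. The vancomycin arrays were nearly level with each other, with an SD of 0.04. The change was -1.97 ± 0.23 (limma adjusted p = 0.000680).

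Psmb8, which takes the place of Psmb5, had values of 13, 12.01 and 12.58 in vancomycin ilea, against 14.31, 14.29 and 14.25 in ilea without antibiotic. Here the spread lay in the vancomycin group, with an SD of 0.50, against 0.03 without antibiotic. Psmb8 fell by 1.75 ± 0.26 (limma adjusted p = 0.00571), and in a fit of the 6 ileum arrays alone the adjusted p was 0.0576.

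Psmb10, the counterpart of Psmb7, read 11.92, 12.17 and 12.01 in vancomycin ilea, against 12.92, 12.54 and 12.92 without antibiotic. The groups were apart, and the change of -0.76 ± 0.17 missed the threshold (limma adjusted p = 0.0724).

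H2-D1, a classical class I heavy chain, had values of 13.87, 14.50 and 14.66 in vancomycin ilea, against 15.38, 15.21 and 15.39 in ilea without antibiotic. Replicate 11 was the lowest, and the change was -0.98 ± 0.22 (limma adjusted p = 0.0689). Leaving out 1 ileum array at a time, H2-D1 was called only without vancomycin replicate 14 (-1.14, limma adjusted p = 0.0496). In the other 5 of 6 fits H2-D1 was not called, with adjusted p of up to 0.304. H2-K1, the other heavy chain, gave 15.45, 15.84 and 16.02 with vancomycin, against 16.36, 16.27 and 16.17 without antibiotic. Its change was -0.50 ± 0.18 (limma adjusted p = 0.351), the second smallest of the 9. B2m, the shared light chain, gave 16.88, 16.64 and 16.88 with vancomycin, against 17.21, 17.05 and 17.19 without antibiotic. Its change of -0.35 ± 0.17 was the smallest of the 9 (limma adjusted p = 0.510).

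**Figure D1:**
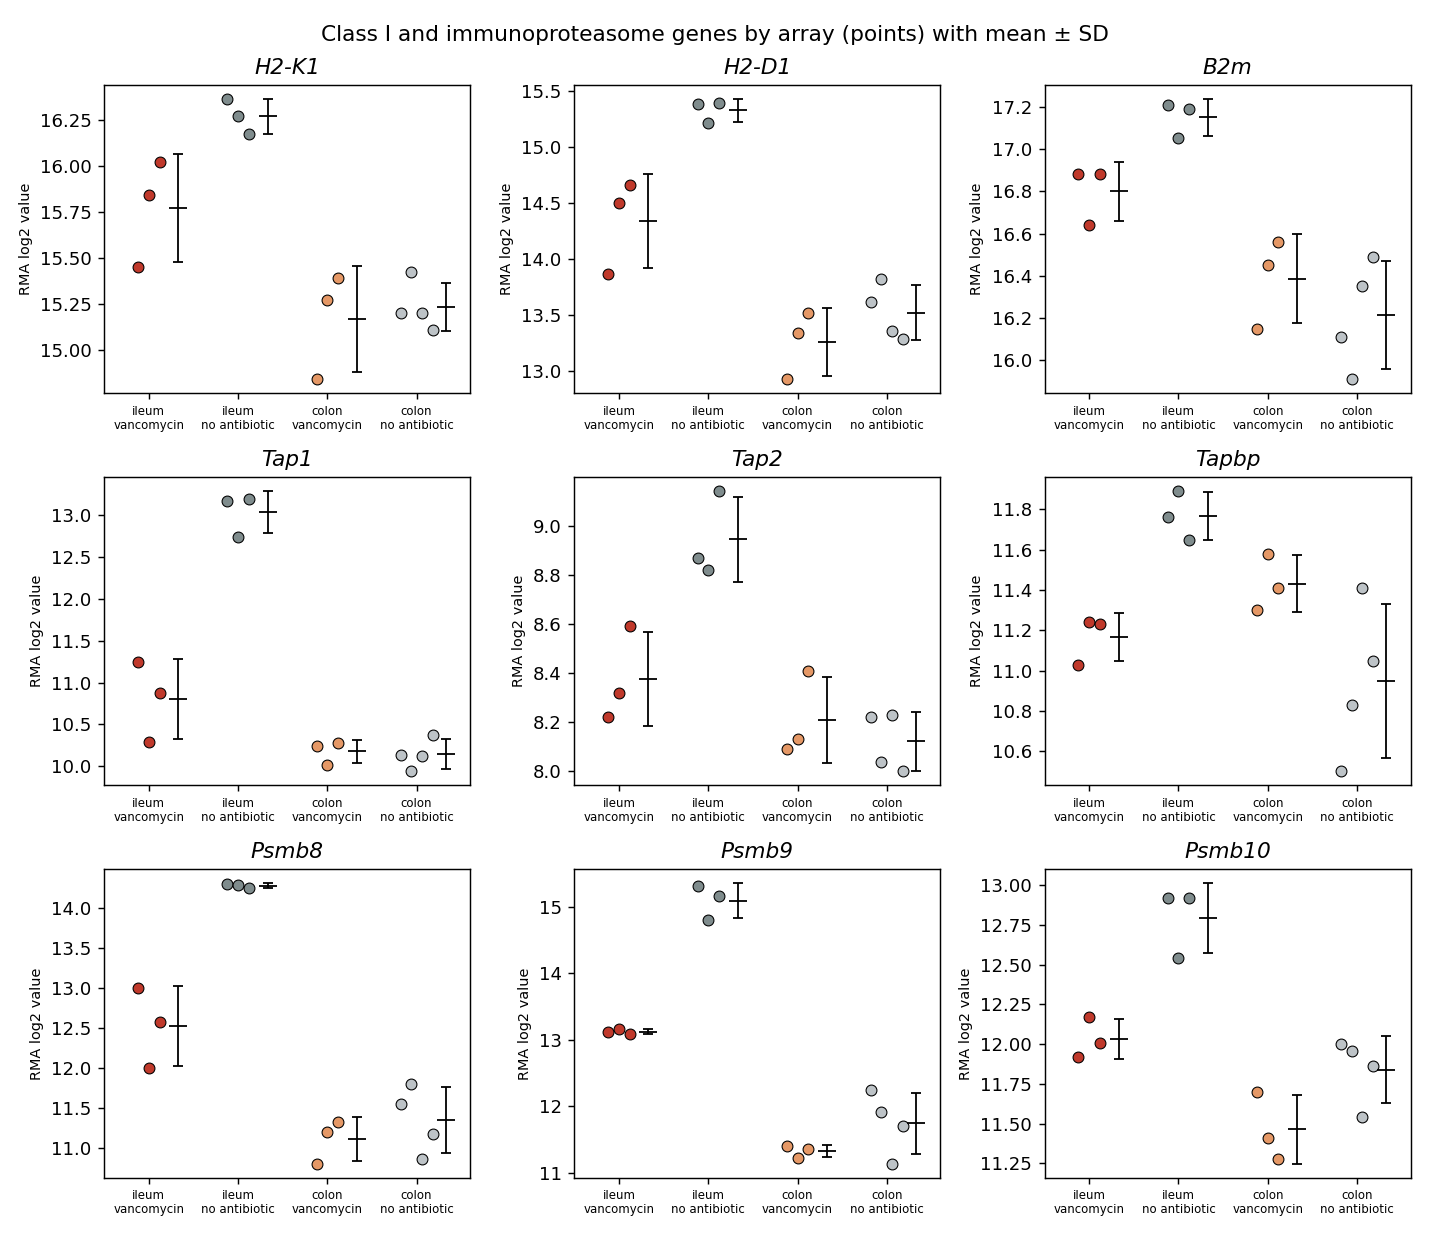
RMA log2 values (vertical axes, scaled per gene) of the 9 measured genes in ileum and colon with and without vancomycin, 1 point per array, with the group mean and SD beside the points. In every panel the 3 vancomycin ilea lie below the 3 ilea without antibiotic, and for Tap1 they run from 10.29 to 11.24, near the colon arrays.

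Leaving out any ileum array kept the calls of Tap1, Psmb9 and Psmb8. Without replicate 11 of the vancomycin ileum their changes were -2.45, -1.96 and -1.99. With array weights, which gave that array the lowest weight of the 13 (0.30) and replicate 13 the highest (3.79), 7 of the 9 genes were called lower, all but H2-K1 and B2m.

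Levels of some markers of other cells also differed in the ileum. Of 11 markers of T cells and cytotoxic lymphocytes 5 were called lower, against 0.485% of all probe sets, and Cd8b1 alone had a positive change (0.44 ± 0.45, not called). Their mean level per array ran from 8.11 to 8.94 in vancomycin ilea, against 9.84 to 10.23 in ilea without antibiotic. The mean of 9 epithelial markers ran from 14.49 to 15.04 with vancomycin, against 14.93 to 15.03 without antibiotic, with none of the 9 called by limma and none at an unadjusted p under 0.05. The mean of 7 smooth muscle markers ran from 13.59 to 14.88 with vancomycin, against 13.34 to 13.48 without antibiotic, with none called by limma and 4 at an unadjusted p under 0.05, which 1977 of 19572 probe sets had. The mean of 5 plasma cell markers ran from 7.60 to 8.95 with vancomycin, against 8.76 to 8.84 without antibiotic. Of these 5, 4 had a negative change and the median was -0.63. None was called by limma, and 3 had an unadjusted p under 0.05, against 1977 of 19572 probe sets. Ptprc, the pan-leukocyte gene, was at 14.87, 12.55 and 11.79 in vancomycin ilea, against 13.16, 12.61 and 12.64 without antibiotic. The part of these cell types in the changes of the 9 genes was not tested, and in whole tissue fewer cells of a type and less RNA per cell cannot be told apart.

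The same question was asked of the colon, where none of the 9 genes was called (limma, 0.0102% of all probe sets called in either direction), and 2 had an unadjusted p under 0.05, where 15.9% of all probe sets did. The groups overlapped for all 9, where 12.3% of all probe sets did not overlap. The median change of the 9 was -0.07, with 4 genes above and 5 below 0. Tap1 was at 10.24, 10.02 and 10.28 in vancomycin colons, against 10.14, 9.94, 10.12 and 10.38 in colons without antibiotic. The groups overlapped, and the change was 0.04 with a 95% confidence interval from -0.40 to 0.47. Psmb9 gave 11.40, 11.23 and 11.36 with vancomycin, against 12.24, 11.91, 11.14 and 11.70 without antibiotic. Only replicate 3 without antibiotic lay below the vancomycin values, and the change of -0.42 had an interval from -0.87 to 0.04.

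Psmb8 in the colon changed by -0.24 (interval -0.76 to 0.29), and H2-D1 by -0.26 (interval -0.70 to 0.18). The genes with an unadjusted p under 0.05 went opposite ways. Tapbp averaged 11.43 ± 0.14 in vancomycin colons and 10.95 ± 0.38 in colons without antibiotic (SD, n = 3 and 4), a change of 0.48 ± 0.18 (limma adjusted p = 0.231). Psmb10 read 11.70, 11.41 and 11.28 with vancomycin, against 12, 11.96, 11.54 and 11.86 without antibiotic, a change of -0.38 ± 0.16 (limma adjusted p = 0.275). For each of the 9 genes the interval in the colon ended above a fall of 1 log2 unit. B2m (0.17), Tap2 (0.09) and H2-K1 (-0.07) lay near 0, and the sign of Tap1, Tap2 and H2-K1 in the colon depended on the array left out or the scaling.

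**Figure D2:**
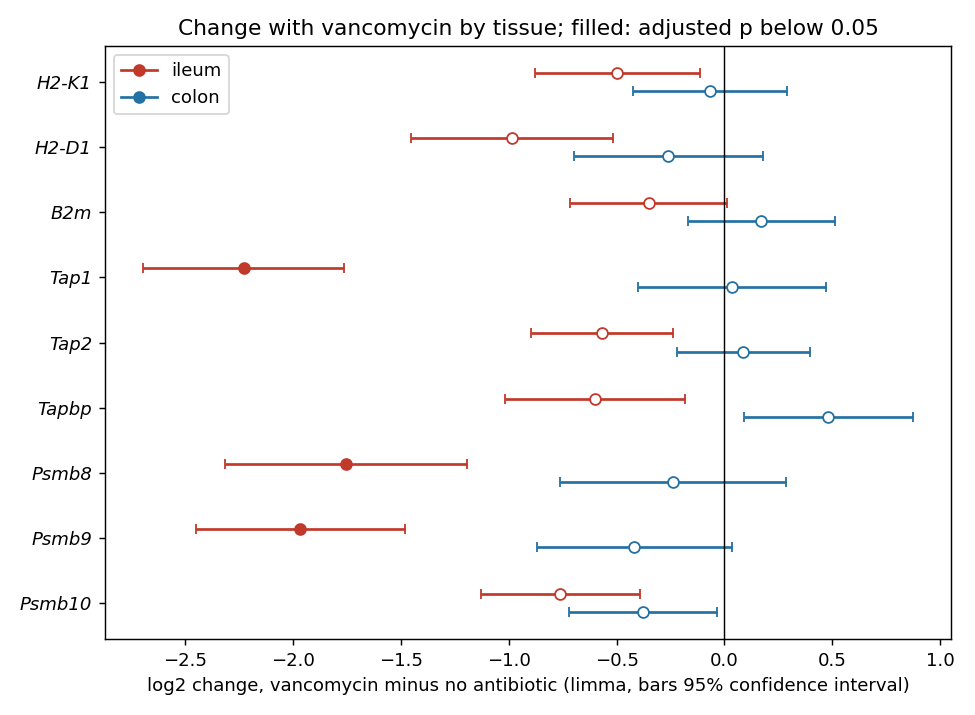
Log2 change with vancomycin (horizontal axis, vancomycin minus no antibiotic, limma) of each gene in ileum (red) and colon (blue), with 95% confidence intervals; filled points have an adjusted p below 0.05. The filled points are Tap1, Psmb9 and Psmb8 in the ileum, and the colon points lie between -0.42 and 0.48.

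Whether the tissues differed was tested as the ileum change minus the colon change. Tap1 passed, with a difference of -2.27 ± 0.30 (limma adjusted p = 0.0101), where 0.158% of all probe sets were called with a negative difference. It passed in each of 20 alternatives, with adjusted p from 0.000551 to 0.0428. Psmb9 (-1.55 ± 0.31, adjusted p = 0.0806), Psmb8 (-1.52 ± 0.36, adjusted p = 0.170) and Tapbp (-1.08 ± 0.27, adjusted p = 0.198) were not called in limma. Leaving out 1 array at a time, Psmb9 was called only without colon no-antibiotic replicate 1 (-1.71, limma adjusted p = 0.0424). In the other 12 of 13 fits Psmb9 was not called, with adjusted p of up to 0.256. Psmb8 was called only without ileum vancomycin replicate 11 (-1.75, limma adjusted p = 0.0376). In the other 12 fits Psmb8 was not called, with adjusted p of up to 0.419. An unadjusted p under 0.05 was seen for 7 of the 9, against 8.01% of all probe sets. All 9 differences were negative, against 49.4% of all probe sets, with a median of -0.72 and -0.38 ± 0.23 for Psmb10 as the smallest.

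Averaged over both tissues with equal weight, 4 genes were lower with vancomycin, against 0.526% of all probe sets called lower. Psmb9 (-1.19 ± 0.15) and Tap1 (-1.10 ± 0.15) kept the call in all 20 alternatives. Psmb8 (-1.0 ± 0.18, limma adjusted p = 0.0253) lost it without 6 of the 13 arrays in turn, namely colon no-antibiotic replicate 1, colon vancomycin replicate 14, the 3 ilea without antibiotic and ileum vancomycin replicate 13, with adjusted p of up to 0.0866. Psmb10 (-0.57 ± 0.12, limma adjusted p = 0.0479) lost it without any of 10 of the 13 arrays, and kept it without colon no-antibiotic replicate 3, colon vancomycin replicate 11 or ileum no-antibiotic replicate 2, with adjusted p of up to 0.147. H2-D1 stood at -0.62 ± 0.15 (adjusted p = 0.0745).

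The tissues themselves differed. Without antibiotic all 9 genes were lower in colon than in ileum and were called, against 9.59% of all probe sets called lower, and none overlapped, against 14.1% without overlap and lower. This comparison shares the ilea without antibiotic with the comparison of vancomycin in the ileum. Psmb9 averaged 11.75 ± 0.46 in colon and 15.09 ± 0.26 in ileum (SD, n = 4 and 3), a change of -3.35 ± 0.21. Psmb8 (-2.93 ± 0.24), Tap1 (-2.89 ± 0.20) and H2-D1 (-1.80 ± 0.20) followed, and the other 5 lay between -1.03 and -0.82. The median change was -1.03, where that of all probe sets was 0.04. In the same comparison 10 of 11 T cell and cytotoxic markers were called lower in colon (median -2.66), and 7 of 7 smooth muscle markers were called higher (median 1.33). Their part in the lower levels of the 9 genes was not tested.

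Among vancomycin arrays 5 of the 9 genes were called lower in colon than in ileum, against 7.67% of all probe sets, and 7 were lower without overlap, against 12.1%. Psmb9 (-1.80 ± 0.23), Psmb8 (-1.41 ± 0.26) and H2-D1 (-1.08 ± 0.22) were among them. Psmb10 (-0.57 ± 0.17) and H2-K1 (-0.60 ± 0.18) were the others, and each lost the call without 4 of the 6 arrays in turn. For Psmb10 these were replicates 13 and 14 of either tissue (adjusted p of up to 0.136), and for H2-K1 colon replicates 11 and 13 and ileum replicates 13 and 14 (adjusted p of up to 0.145). Tap1 was at -0.62 ± 0.22 (limma adjusted p = 0.0738). Leaving out 1 array at a time, Tap1 was called only without ileum vancomycin replicate 13 (-0.88, limma adjusted p = 0.0101). In the other 5 of 6 fits Tap1 was not called, with adjusted p of up to 0.211. Tap2 (-0.17 ± 0.15) was not called, and Tapbp was higher in colon than in ileum on every vancomycin array without being called (0.26 ± 0.20). Of the T cell and cytotoxic markers 9 of 11 were called lower in colon here (median -1.91), and of the smooth muscle markers 1 of 7 was called higher (median 0.73), and their part was again not tested.

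In order of group means Tap1, Tap2 and B2m ran from colon without antibiotic, the lowest, through vancomycin colon and vancomycin ileum to ileum without antibiotic. Psmb8, Psmb9, Psmb10, H2-K1 and H2-D1 had the 2 colon groups the other way round, and Tapbp had vancomycin ileum below vancomycin colon. The 2 colon groups, neighbours in this order for 8 genes, were not called different for any gene.

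Inducible subunits were next set against the constitutive subunits they replace, within each array. Psmb5 is not analysed here. Psmb9 minus Psmb6 was -0.82, -0.55 and -0.66 in vancomycin ilea, against 1.39, 0.88 and 1.67 in ilea without antibiotic. The groups were far apart, with a difference of -1.99 between them (exact permutation test, two-sided p = 0.1, the smallest that 3 against 3 arrays allow, and 0.2 after adjustment over 4 tests). Psmb10 minus Psmb7 was -1.94, -1.56 and -1.66 in vancomycin ilea, against -0.96, -1.45 and -0.89 without antibiotic, a difference of -0.62 (exact p = 0.1). In the colon the same differences were 0.03 for Psmb9 (exact p = 0.943) and -0.11 for Psmb10 (exact p = 0.2). Psmb6 itself changed by 0.02 ± 0.24 in the ileum and Psmb7 by -0.14 ± 0.19. The zero of such a difference between probe sets has no meaning of its own.

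**Figure D3:**
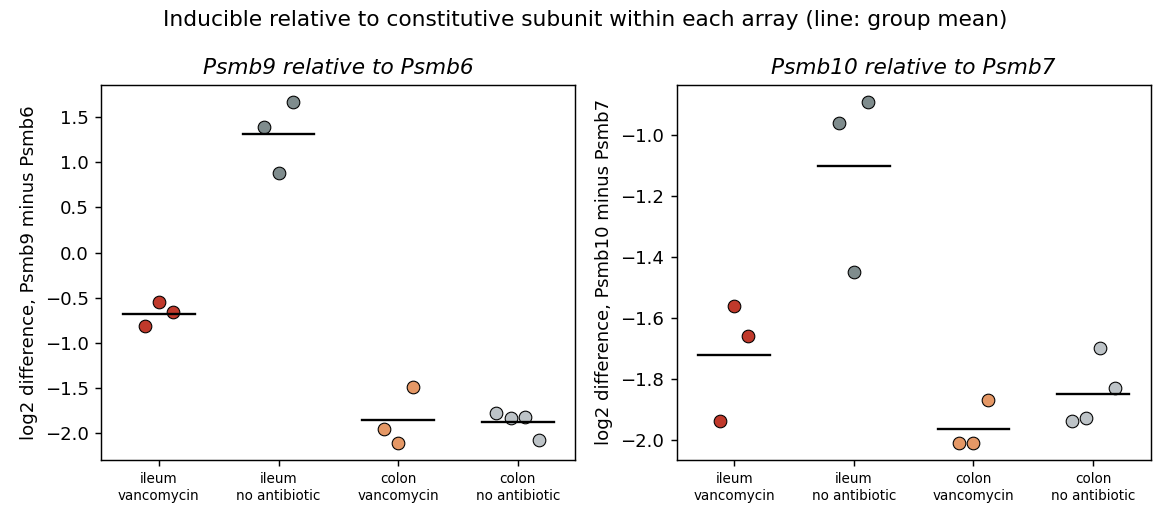
Log2 difference within each array (vertical axes) between Psmb9 and Psmb6 (left) and between Psmb10 and Psmb7 (right), 1 point per array and a line at each group mean. For Psmb9 the vancomycin ilea lie between -0.82 and -0.55 and the ilea without antibiotic between 0.88 and 1.67.

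Other genes of the pathway were described from 6 lists, whose counts at an unadjusted p under 0.05 in the ileum stand against 1977 of 19572 probe sets. Lack of overlap in the ileum was not particular to the 9 members. Lower without overlap were 9 of 13 core proteasome, 6 of 11 activator and assembly and 5 of 10 peptide loading genes. The same held for 8 of 28 other class I chains, 4 of 17 interferon gamma and control genes and 3 of 10 receptors, against 8.34% of all probe sets. In the constitutive core proteasome 0 of 13 measured genes were called in the ileum (limma), with 1 at an unadjusted p under 0.05, and the median change was -0.26. Psma1 (-0.47 ± 0.16) and Psma4 (-0.26 ± 0.17) are alpha subunits of that core. The change was negative for 12 of the 13 in the ileum, where the median of all probe sets was 0.02. In the colon the change was negative for all 13, with a median of -0.32, where that of all probe sets was 0.02. There none was called by limma, and 3 had an unadjusted p under 0.05, against 15.9% of all probe sets. Among 11 proteasome activator and assembly genes none was called in the ileum by limma, with 5 at an unadjusted p under 0.05 and a median of -0.36. All 11 changes were negative in the colon as well, with a median of -0.27. None was called by limma there, and 3 had an unadjusted p under 0.05, against 15.9% of all probe sets. Psme1 and Psme2 encode the interferon-induced cap that opens the core. Psme2 gave 15.04, 15.19 and 15.17 in vancomycin ilea, against 15.72, 15.70 and 15.77 without antibiotic (-0.60 ± 0.16, limma adjusted p = 0.161). Psme1 changed by -0.46 ± 0.14 (limma adjusted p = 0.214), also without overlap. Psme2b, a close copy of Psme2 whose probes may not be distinct from it, was at -0.69 ± 0.16.

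Of 10 genes of peptide loading and trimming none was called in the ileum by limma, with 2 at an unadjusted p under 0.05, and the median was -0.25. Those 2 were Tapbpl and Erap1. Tapbpl encodes TAPBPR, a tapasin relative that edits the bound peptide, and averaged 10.67 ± 0.49 in vancomycin ilea and 11.79 ± 0.24 in ilea without antibiotic (SD, n = 3 each). The groups did not overlap, and the change of -1.12 ± 0.23 did not pass the threshold (limma adjusted p = 0.0508). Erap1, the peptidase that trims peptides in the endoplasmic reticulum, changed by -0.78 ± 0.17 (limma adjusted p = 0.0689), and by -0.01 ± 0.16 in the colon.

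Among 28 measured other class I and class I-like chains 4 fell in the ileum (0.485% of all probe sets), and the median was -0.08. H2-Q10 fell, nominally 2.63-fold (limma adjusted p = 0.00857), with 7.65, 7.94 and 8.58 in vancomycin ilea, against 9.29, 9.26 and 9.81 without antibiotic. H2-Q2 fell by 1.37 ± 0.26 (limma adjusted p = 0.0333), H2-Q5 by 1.05 ± 0.17 (adjusted p = 0.0123) and H2-T23 by 1.02 ± 0.19 (adjusted p = 0.0333). H2-T23 encodes Qa-1, a non-classical chain that presents to natural killer receptors. It read 6.67, 6.61 and 7.09 in vancomycin ilea, against 7.54, 7.68 and 8.20 without antibiotic. H2-M3, which presents formylated peptides of bacterial type, was at 9.73, 8.24 and 8.21 with vancomycin, against a lowest value of 9.59 without antibiotic. Its groups overlapped through replicate 11 alone (-1.11 ± 0.33, limma adjusted p = 0.219). In the colon none of the 28 was called by limma, with 2 at an unadjusted p under 0.05, against 15.9% of all probe sets. The 4 that fell in the ileum changed there by -0.42 (H2-Q10), -0.02 (H2-Q2), 0.01 (H2-Q5) and -0.02 (H2-T23).

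**Figure D4:**
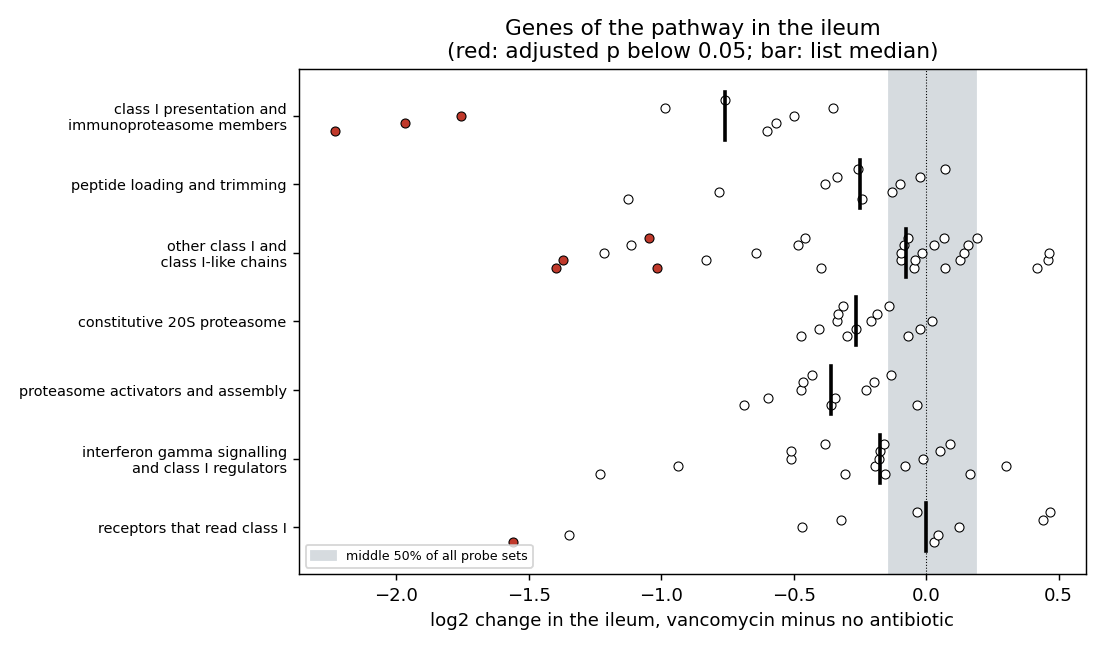
Log2 change in the ileum with vancomycin (horizontal axis) of every measured gene of the 9 members and of 6 further pathway lists, 1 point per gene, red where the adjusted p is below 0.05, with a bar at each list median and a band over the middle 50% of all probe sets. The member median is -0.76, and the other list medians lie between -0.36 and 0.

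Of 17 measured genes of interferon gamma signalling and class I control none was called in the ileum by limma, with 3 at an unadjusted p under 0.05, and the median was -0.17. Irf1, the interferon-induced factor that switches on Tap1 and Psmb9, read 12.04, 11.39 and 11.60 in vancomycin ilea, against 13.33, 12.62 and 12.77 without antibiotic. Its groups were apart, at -1.23 ± 0.29 (limma adjusted p = 0.0868). In the colon Irf1 stood at 11.98, 12 and 12.56 with vancomycin, against 11.13, 11.15, 12.17 and 11.59 without antibiotic, a change of 0.67 ± 0.27 (limma adjusted p = 0.249). The difference between the tissues was -1.90 ± 0.39 (limma adjusted p = 0.0960). Ciita, the master regulator of class II genes, changed by -0.94 ± 0.20 in the ileum (limma adjusted p = 0.0633). Ifng itself read 7.10, 6.84 and 7.35 in vancomycin ilea, against 7.59, 7.37 and 7.25 without antibiotic, with overlap and a change of -0.31 ± 0.18. Its means lay between 7.10 and 7.40 in all 4 groups, where the lowest array median was 7.92. Whether so dim a probe set can show a change was not tested.

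Of 10 measured receptors that read class I molecules 1 fell in the ileum (0.485% of all probe sets), with 5 changes positive, 5 negative and a list median of 0. Klrd1, the CD94 chain that pairs with NKG2 receptors for Qa-1, fell by 1.56 ± 0.26 (limma adjusted p = 0.0156). It read 7.41, 7.20 and 8.11 in vancomycin ilea, against 8.64, 9.39 and 9.36 without antibiotic. Cd8a, the co-receptor of class I restricted T cells, was at 8.51, 8.17 and 8.90 with vancomycin, against 10.22, 9.05 and 10.35 without antibiotic (-1.35 ± 0.30, limma adjusted p = 0.0724). Cd8b1, the other chain of that co-receptor, was at 9.24, 7.99 and 9.1 with vancomycin, against 8.15, 9.48 and 7.38 without antibiotic, with overlap and a positive change (0.44 ± 0.45, limma adjusted p = 0.771). Klrk1, the NKG2D receptor gene, had the highest change of the list (0.47 ± 0.18, limma adjusted p = 0.389). Its groups overlapped, and its means of 5.74 with vancomycin and 5.27 without antibiotic were dim, where the lowest array median was 7.92. Cd8b1 and Klrk1 were added after their values were seen.

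As a description of how alike the members ran, each array's deviation from its tissue mean was compared over the 13 arrays, where the points share the treatment difference. Psmb9 followed the mean of the other 8 members most closely in the ileum, with r = 0.99 over 6 arrays, and r ran down to 0.82 for H2-K1. In the colon, over 7 arrays, r ranged from -0.77 for Tapbp to 0.78 for H2-D1. H2-K1 and H2-D1 had the highest r of any pair over the 13 arrays (0.94), followed by Psmb9 and Psmb10 (0.92) and Psmb8 and Psmb9 (0.91).

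The 8 other genes closest to the members' mean profile over 13 arrays were Igtp (r = 0.97), Zbp1 (0.96), Ubd (0.96), Nkg7 (0.96), Ccl5 (0.96), Gm12250 (0.96), Apol7e (0.96) and Plekhn1 (0.95). Igtp is an interferon-induced GTPase, Zbp1 a sensor of nucleic acids, Ubd a ubiquitin-like protein, and Nkg7 and Ccl5 are genes of cytotoxic lymphocytes. All 8 were called lower in vancomycin ilea, from -4.10 ± 0.44 for Igtp to -0.95 ± 0.12 for Ccl5, and none was called in the colon by limma. They were chosen for a profile that holds this treatment difference, so these values are a description.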

How the data were processed

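The deposited values are log2 expression values of 1-colour Affymetrix arrays. Per the submitters' processing notes the authors used RMA, and those notes also name Affymetrix Expression Console 1.4.1.46. RMA, as usually run, corrects background, quantile-normalizes arrays and summarizes probes, which pulls arrays to a common distribution. Of 28846 probe sets, 19572 had exactly 1 gene symbol in the platform annotation, and after matching to RefSeq of GRCm38.p6 by Entrez identifier 0 symbols changed. No source used here states the array's annotation build.

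A group-means model of all 13 arrays was fitted with limma 3.58.1 (R 4.3.3, lmFit and eBayes) and tested for 6 comparisons, each with Benjamini-Hochberg adjustment over the 19572 probe sets. The fit was tested on simulated data, in which 200 of 19572 genes were changed. A change of 1 log2 unit was recovered for 68.7% of genes in the ileum and for 28.4% in the difference between tissues. A change of 2 was recovered for 97.0% and 89.6%, and 6.35% and 4.05% of the calls were false. Members, lists, tests and alternatives were chosen with earlier results of these data known. Named genes were the members, list genes past the threshold in the ileum, the colon or their difference (filled by p where few passed), a short list of further pathway genes, and the 8 genes most alike in profile. Alternatives were a fit of the compared groups alone, array weights, an intensity trend, a filter on dim probe sets, median centring, repeated quantile normalization, averaged probe sets, a replicate block and leaving out each array.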

Additional observations from a re-analysis of the deposited data

Results flagged for a closer look

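The change of Tap1 with vancomycin differed between ileum and colon by -2.27 ± 0.30 (SE, limma adjusted p = 0.0101), with -2.23 ± 0.22 in the ileum and 0.04 ± 0.20 in the colon. Of the 9 measured genes, Tap1 alone passed this test in the main analysis.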

How the results depend on the processing

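In the ileum Tap1 and Psmb9 were called in all 14 alternatives and Psmb8 in 13 of 14, and no alternative called any of the 9 genes in the colon. Members called in the ileum were 3 in the main analysis, 2 with the compared groups alone, 7 with array weights, and 3 to 4 when leaving out each array. For the average over tissues they were 4, and 2 after repeated quantile normalization or 2 to 4 when leaving out each array. For the difference between tissues they were 1, and 4 with array weights or 1 to 2 when leaving out each array. For colon against ileum under vancomycin they were 5, and 3 with the compared groups alone, 3 after repeated quantile normalization, or 3 to 5 when leaving out each array. All 9 were called for colon against ileum without antibiotic in every alternative.

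Over all probe sets the ileum gave 105 calls, and 20 with its own arrays alone, 1012 with array weights, or 40 to 172 when leaving out each array (172 without vancomycin replicate 11). The colon gave 2, and 0 with its own arrays alone, 38 with array weights, 1 without dim probe sets, 0 after median centring, or 0 to 217 when leaving out each array (217 without no-antibiotic replicate 3). The average gave 132, and 1235 with array weights or 23 to 281 when leaving out each array. The difference gave 37, and 191 with array weights or 12 to 84 when leaving out each array. Colon against ileum under vancomycin gave 2961, and 1875 with the compared groups alone or 4903 with array weights. The cause of these shifts was not tested.

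Changes near 0 turned sign. In the colon Tap1 ran from -0.0333 to 0.115, Tap2 from -0.0125 to 0.1475 and H2-K1 from -0.1775 to 0.0975 when leaving out each array, and H2-K1 was 0.0612 after repeated quantile normalization. Averaged over tissues Tapbp was 0.0185 with array weights, 0.0139 after repeated quantile normalization and -0.1333 to 0.0183 when leaving out each array.

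Replicate numbers recur in both tissues, but the labels do not say that a number is 1 mouse. Same-numbered vancomycin arrays correlated in their deviations at 0.11 to 0.24 and differently numbered ones at -0.23 to 0.15, and 5 of 6 correlated best with their own number. Without antibiotic these values were -0.02 to 0.08, -0.08 to 0.16 and 2 of 6. Not every pair exceeded 0.1, so a pairing was not established. The replicate block was a random effect (correlation 0.097) for the ileum, the colon and the average. For the difference and for colon against ileum it was a fixed term, to which colon replicate 5, without an ileum partner, added nothing. With the block, members called were 3 in the ileum, 0 in the colon and 3 for the average (Psmb10 was not called, limma adjusted p = 0.0733). For the difference 1 was called. Calls over all probe sets were 72 for the average and 23 for the difference.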
